A study of Mus musculus with 8 samples.

Results

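The mitochondrial ribosomal protein genes were taken as every gene of the deposited table whose symbol begins with Mrpl or Mrps followed by a digit, which gave 77 of 21878 genes. Of these, 50 encode proteins of the large subunit and 26 proteins of the small subunit. Mrps18a and Mrps30 carry a small-subunit symbol but encode large-subunit proteins. Mrps36 was named as a ribosomal protein and is now known as a component of the alpha-ketoglutarate dehydrogenase complex, so it was kept as a member and counted in neither subunit. Of the 76 mitoribosome proteins, 46 were classed as the counterpart of a bacterial ribosomal protein and 30 as mitochondria-specific, with Mrps18a and Mrps18b put among the 30 although both are related to bacterial S18.

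The mitochondrial ribosome translates the few proteins encoded by mitochondrial DNA, all of them subunits of the respiratory chain and ATP synthase. Its ribosomal RNAs come from mitochondrial DNA, whereas all of its proteins are encoded in the nucleus, made in the cytosol and imported. Their genes are transcribed by RNA polymerase II, often from GC-rich promoters shared with a neighbouring gene, and NRF1, GABPA (an ETS family factor) and YY1 are known regulators of many nuclear genes for mitochondrial proteins. Astrocytes combine a high rate of glycolysis with functional oxidative phosphorylation.

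Polyadenylated RNA was sequenced from wild-type astrocytes of newborn (P0) C57BL/6 mouse brain. In 4 libraries the cells had received a cocktail of IL-1α, TNFα and C1q, used to obtain reactive astrocytes carrying C3d, and in 4 libraries they had received no treatment. The sources used here give no dose or duration, nor whether the libraries came from separate cultures or animals, so p-values describe variation among these libraries that could be technical. The comparison asks which of these genes differ in RNA level between cocktail and untreated cells. Because the values are relative to the total of each library, the level of a gene can also shift when other RNAs change. In RNA taken from many cells together, less of an RNA in all cells cannot be told apart from fewer cells that carry it.

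Depth was 19322585 to 20506911 fragments in cocktail libraries and 19195898 to 20640490 in untreated libraries. Cocktail libraries 1 and 2 stood apart from cocktail libraries 3 and 4: the chi-square per gene was 2.29 and 2.55 within these pairs and 4.12 to 6.79 between them, against 2.11 to 4.50 among untreated libraries. The summed level of 8 astrocyte markers was 823 to 845 FPKM in cocktail and 979 to 1110 FPKM in untreated libraries, with 2 markers higher and 6 lower. The 2 higher were Slc1a2 (52.3 ± 1.17 FPKM in cocktail and 9.73 ± 0.579 FPKM in untreated cells) and Aqp4 (253 ± 5.12 and 165 ± 4.43 FPKM). Among the 6 lower was Gfap (189 ± 5.41 FPKM in cocktail and 412 ± 29.6 FPKM in untreated cells). All 8 passed the filter on low values, but S100b was at only 0.291 ± 0.146 FPKM in cocktail and 1.18 ± 0.169 FPKM in untreated cells. The summed level of 10 microglia markers was 13.2 and 13.8 FPKM in cocktail libraries 1 and 2, 27.8 and 38.5 FPKM in cocktail libraries 3 and 4, and 10.5 to 12.1 FPKM in untreated libraries, with 4 higher and none lower (limma, 4 of the 10 passed the filter on low values). Neuron markers (6 genes) summed to 49.4 to 56.0 FPKM in cocktail and 139 to 157 FPKM in untreated libraries, with none higher and 2 lower. Oligodendrocyte lineage markers (8 genes, Mog at 0) summed to 97.1 to 102 FPKM in cocktail and 166 to 176 FPKM in untreated libraries, with 3 lower and 1, Pdgfra, higher (3.07 ± 0.155 FPKM in cocktail and 0.934 ± 0.111 FPKM in untreated cells). Endothelial markers (5 genes, Cldn5 at 0) summed to 1.35 to 1.74 FPKM in cocktail and 4.72 to 5.17 FPKM in untreated libraries, where Kdr alone passed the filter and was lower. Fibroblast and mural markers (6 genes) summed to 171 to 186 FPKM in cocktail and 602 to 685 FPKM in untreated libraries, with 4 lower and 2 higher. Most of this sum was Acta2 (111 ± 5.48 FPKM in cocktail and 581 ± 31.7 FPKM in untreated cells). Col1a1 was also lower, at 34.4 ± 2.56 FPKM in cocktail and 48.8 ± 6.14 FPKM in untreated cells, as were Pdgfrb and Rgs5. Dcn and Lum were higher, at 8.31 ± 2.58 and 7.69 ± 1.03 FPKM in cocktail cells, against 1.45 ± 0.146 and 0.237 ± 0.0631 FPKM in untreated cells. S100b, Kdr and Rgs5 passed the filter only through untreated libraries, and Lum only through cocktail libraries. Pdgfra and the microglia markers Itgam and Csf1r reached 1 FPKM in too few untreated libraries to pass without the cocktail libraries. Each was thus tested because of the group where it was high, which limits what its call can show. The part of these marker differences in the results was not tested.

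Levels are given in FPKM, fragments per kilobase of gene scaled to the depth of the library, which allows comparison between genes per length. All 77 genes were expressed and passed the filter (1 FPKM or more in 4 or more of 8 libraries). A gene rested on 155 (Mrpl47) to 2368 (Mrps6) fragments in a library. Mean levels ranged from 3.41 FPKM (Mrpl19) to 66.3 FPKM (Mrps21) in cocktail cells, with a median of 18.6 FPKM, and from 3.01 FPKM (Mrpl1) to 141 FPKM (Mrps6) in untreated cells, with a median of 17.9 FPKM. Thus the ratio of the highest to the lowest level was 19.5 in cocktail cells and 46.8 in untreated cells. Between 5 and 30 FPKM lay 59 genes in cocktail cells and 63 genes in untreated cells. Over all 8 libraries the 5 highest levels belonged to Mrps6, Mrps21, Mrpl52, Mrpl33 and Mrpl13. The median coefficient of variation between the 4 libraries of a group was 5.15% in cocktail and 5.25% in untreated libraries.

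Of the 77 genes, 72 had a log2 difference under 0.3 in size and 4 one of at least 0.5. Small-subunit gene Mrps6 fell to less than 50% of its untreated level, and the large-subunit genes Mrpl38, Mrpl45 and Mrpl52 rose. In limma on log2(FPKM + 1), 22 of the 77 genes were higher and 10 lower in cocktail cells at an adjusted p under 0.05, and 45 were not called. Among all 11845 tested genes, 26.6% were higher and 41.1% lower in cocktail cells. The share called was thus 41.6% of the mitochondrial ribosomal protein genes and 67.7% of all tested genes. The same split held for size: 5.19% of the 77 genes and 23.1% of all tested genes differed by a log2 value of at least 0.5, and 1.30% and 8.64% by at least 1. The 4 cocktail values lay entirely above or below the 4 untreated values in 22 of the 77 genes (28.6%), all of them among those called, and in 62.7% of all tested genes. The median log2 difference was 0.05 over the 77 genes and -0.05 over all tested genes, and the median absolute difference was 0.088 over the 77 genes and 0.202 over all tested genes.

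**Figure D1:**
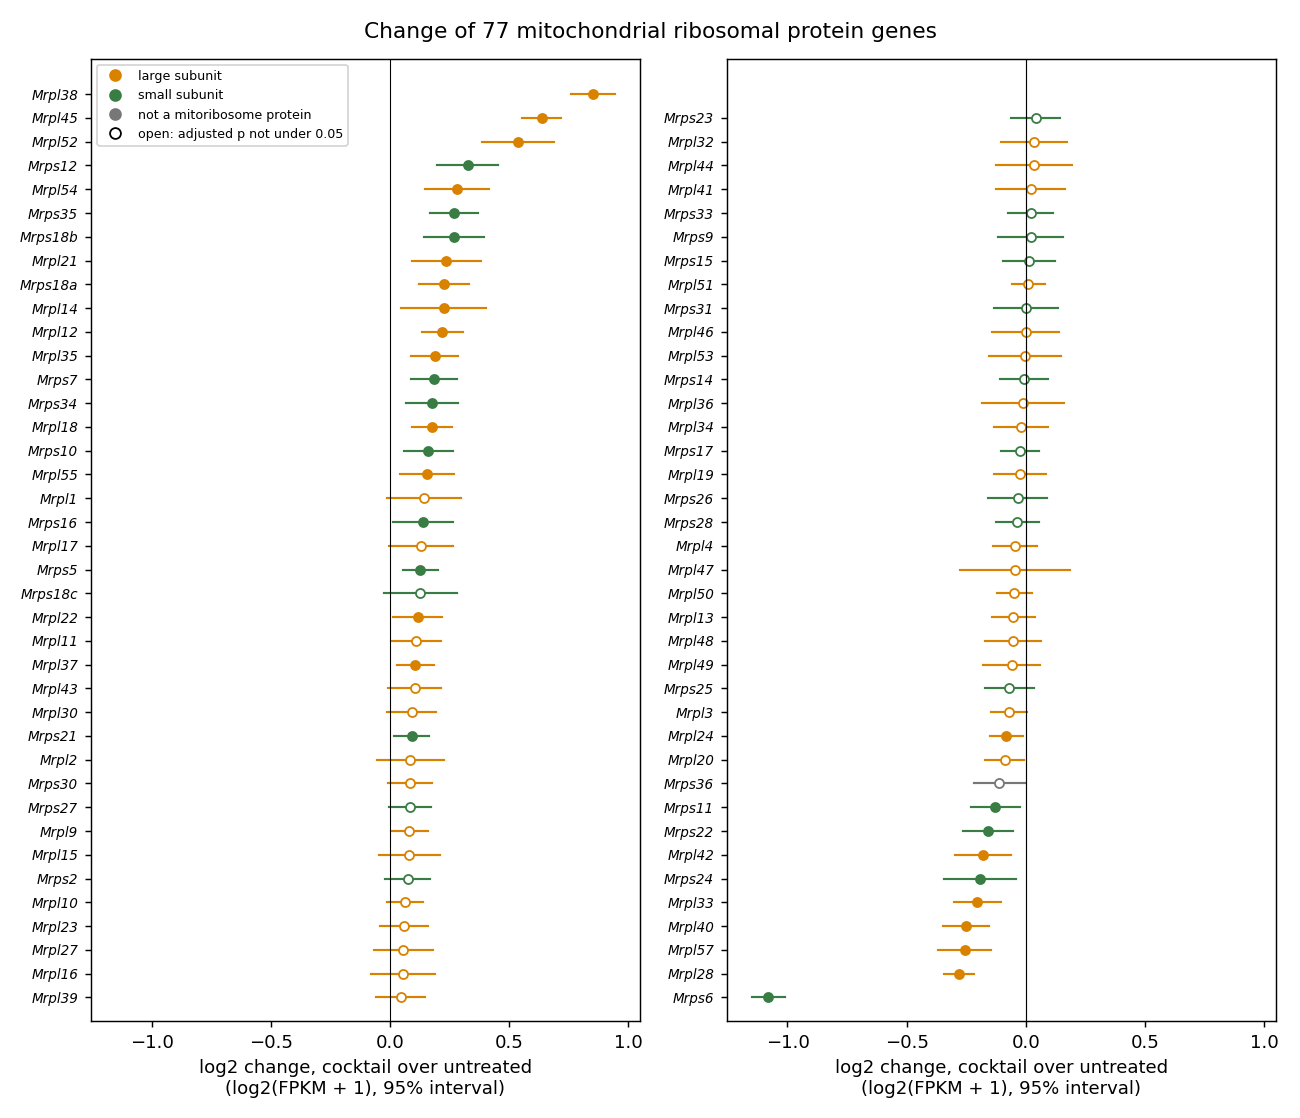
Log2 difference of each of the 77 genes, cocktail over untreated, on the log2(FPKM + 1) scale (x axis) with 95% intervals from limma, ordered from the highest to the lowest down both panels; filled points have an adjusted p under 0.05. Mrps6 lies at -1.08 and Mrpl38, Mrpl45 and Mrpl52 at 0.85, 0.64 and 0.54, while 72 of the 77 genes lie within 0.3 of 0.

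The count of calls depended on how libraries were scaled. When the libraries were rescaled by median ratios in place of totals, 34 of the 77 genes were higher and 5 lower, together 50.6% of the 77 genes, against 34.5% higher, 34.8% lower and 69.3% called of all tested genes. All 22 rises were kept, 12 further genes were called higher, and the falls of Mrps24, Mrpl42, Mrps22, Mrps11 and Mrpl24 were no longer called. The median log2 difference was then 0.10 over the 77 genes and 0.01 over all tested genes. Without cocktail libraries 1 and 2 the counts were 18 higher and 7 lower, and without cocktail libraries 3 and 4 they were 17 higher and 10 lower. Under all 17 alternative settings, 13 rises (Mrpl38, Mrpl45, Mrpl52, Mrps12, Mrpl54, Mrps35, Mrps18b, Mrps18a, Mrpl12, Mrpl35, Mrps7, Mrpl18 and Mrps5) and 5 falls (Mrps6, Mrpl28, Mrpl57, Mrpl40 and Mrpl33) were called.

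Mrps6 encodes the mitochondrial homologue of bacterial ribosomal protein S6, a small-subunit protein. It measured 66.6, 66.2, 67.6 and 63.5 FPKM in cocktail libraries 1 to 4, against 138, 142, 135 and 147 FPKM in untreated libraries 1 to 4. Every cocktail library was below every untreated library, and the groups were far apart relative to their spread. The mean was 66.0 ± 1.76 FPKM in cocktail and 141 ± 5.14 FPKM in untreated cells (SD, n = 4 each), a ratio of 0.469 and a log2 difference of -1.08 (SE 0.032, limma adjusted p = 4.83e-11). In untreated cells it was the highest of the 77 genes and stood at more than double the level of the next, Mrps21 (62.2 ± 1.14 FPKM). In cocktail cells Mrps6 and Mrps21 (66.3 ± 3.10 FPKM) did not differ beyond their spread.

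Mrps6 lies on the plus strand of chromosome 16 at chr16:92058270-92112227 (GRCm38). It shares 159 exon bases on the same strand with Slc5a3, which encodes the sodium-coupled myo-inositol transporter, an osmolyte carrier of glia, and 305 with the predicted coding gene Gm49711. The RefSeq promoter window of Slc5a3 begins at base 92058072 and that of Mrps6 at base 92058086, so both genes share nearly the whole window. Slc5a3 measured 8.81, 8.03, 8.92 and 8.34 FPKM in cocktail libraries, against 19.0, 20.5, 20.1 and 20.9 FPKM in untreated libraries. Its groups did not overlap either, with a mean of 8.53 ± 0.413 FPKM in cocktail and 20.1 ± 0.817 FPKM in untreated cells (SD, n = 4 each) and a log2 difference of -1.15 (SE 0.042, limma adjusted p = 3.18e-10). How fragments in the shared exon were assigned is not given in the sources used here, and its part in the values of both genes was not tested.

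The promoter windows of 3 of the 4 genes with a log2 difference of at least 0.5 are shown, and their starts differ in content. No promoter window was found for Mrpl38, the other of these 4 genes. Each runs 5′ to 3′ on the plus strand from 250 bases before to 50 bases after the RefSeq start (GRCm38.p6), at chr16:92058086-92058385 for Mrps6, chr11:97315466-97315765 for Mrpl45 and chr14:54426659-54426958 for Mrpl52. Capitals mark, on either strand, matches to the NRF1 motif (10 bases), CCGGAAG (an ETS motif), GGGCGG (the GC box) and AAGATGG (the YY1 motif).
Mrps6: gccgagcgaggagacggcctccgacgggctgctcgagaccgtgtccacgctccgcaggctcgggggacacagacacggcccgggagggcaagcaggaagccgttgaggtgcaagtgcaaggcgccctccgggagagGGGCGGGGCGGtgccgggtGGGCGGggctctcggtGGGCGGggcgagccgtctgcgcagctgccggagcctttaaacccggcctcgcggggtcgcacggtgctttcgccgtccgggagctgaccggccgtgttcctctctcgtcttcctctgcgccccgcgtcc
Mrpl45: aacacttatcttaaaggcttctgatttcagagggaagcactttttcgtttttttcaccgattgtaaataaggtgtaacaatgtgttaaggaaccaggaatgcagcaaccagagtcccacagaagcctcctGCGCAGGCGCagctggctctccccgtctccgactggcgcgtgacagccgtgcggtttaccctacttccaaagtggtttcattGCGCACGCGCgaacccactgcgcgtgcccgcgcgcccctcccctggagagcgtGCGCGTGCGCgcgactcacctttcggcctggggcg
Mrpl52: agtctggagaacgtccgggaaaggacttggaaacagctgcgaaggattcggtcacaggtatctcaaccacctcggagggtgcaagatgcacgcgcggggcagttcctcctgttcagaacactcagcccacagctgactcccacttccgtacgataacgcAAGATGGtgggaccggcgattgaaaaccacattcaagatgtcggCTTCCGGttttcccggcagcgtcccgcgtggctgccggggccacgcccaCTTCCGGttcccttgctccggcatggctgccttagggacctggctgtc
The Mrps6 window, which it shares with Slc5a3, holds 4 GC boxes, of which the first and second overlap, and none of the other motifs. The Mrpl45 window holds 3 NRF1 motifs and none of the others. The Mrpl52 window holds 2 ETS motifs and 1 YY1 motif.

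The 3 large rises were all in mitochondria-specific proteins of the large subunit. Mrpl38 encodes a protein of the central protuberance, a part of the large subunit at its interface with the small one. It measured 46.2, 45.4, 48.2 and 48.2 FPKM in cocktail libraries, against 23.4, 26.4, 25.8 and 26.8 FPKM in untreated libraries. The groups did not overlap, and the mean was 47.0 ± 1.44 FPKM in cocktail and 25.6 ± 1.54 FPKM in untreated cells (SD, n = 4 each), a ratio of 1.84 and a log2 difference of 0.85 (SE 0.042, limma adjusted p = 4.50e-09). Mrpl38 lies on the minus strand at chr11:116131817-116138868. It shares no annotated exon base with another protein-coding gene or with an antisense, lincRNA or processed-transcript gene, the types compared. Its downstream neighbour Trim65, on the same strand after a gap of 689 bases, was at 1.38 ± 0.124 FPKM in cocktail and 0.969 ± 0.209 FPKM in untreated cells (log2 difference 0.28, limma adjusted p = 0.00877, and 0.0506 without cocktail libraries 1 and 2). Trim65 would not have passed the filter of 1 FPKM without cocktail libraries, the group where it was high, which limits what its call can show.

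Mrpl45 encodes a protein near the exit of the nascent peptide tunnel, by which the mitoribosome contacts the inner membrane. It measured 20.7, 20.2, 22.5 and 21.3 FPKM in cocktail libraries, against 13.5, 13.2, 13.2 and 13.2 FPKM in untreated libraries. The untreated values were nearly identical and all lay below the cocktail values. The mean was 21.2 ± 1.01 FPKM in cocktail and 13.3 ± 0.185 FPKM in untreated cells (SD, n = 4 each), a ratio of 1.60 and a log2 difference of 0.64 (SE 0.037, limma adjusted p = 1.84e-08). The gene lies on the plus strand at chr11:97315716-97329920 and shares no exon base with another gene of the types compared.

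Mrpl52 encodes another mitochondria-specific protein of the large subunit. It measured 68.3, 54.5, 68.1 and 70.1 FPKM in cocktail libraries, against 41.9, 47.2, 44.8 and 43.9 FPKM in untreated libraries. Cocktail library 2 was lower than the other cocktail libraries but still above every untreated library. The mean was 65.2 ± 7.20 FPKM in cocktail and 44.4 ± 2.18 FPKM in untreated cells (SD, n = 4 each), a ratio of 1.47 and a log2 difference of 0.54 (SE 0.069, limma adjusted p = 2.44e-05), and the log2 difference was 0.62 without cocktail library 2 (limma adjusted p = 1.05e-07). Mrpl52 lies on the plus strand at chr14:54426909-54429756. Mmp14, which encodes a membrane-bound matrix metalloproteinase, follows on the same strand after 1856 bases and was at 164 ± 1.89 FPKM in cocktail and 86.2 ± 1.90 FPKM in untreated cells (log2 difference 0.92, limma adjusted p = 2.53e-11). Mrpl52 shares no annotated exon base with it, and whether reads beyond the end of one gene entered the other was not tested.

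**Figure D2:**
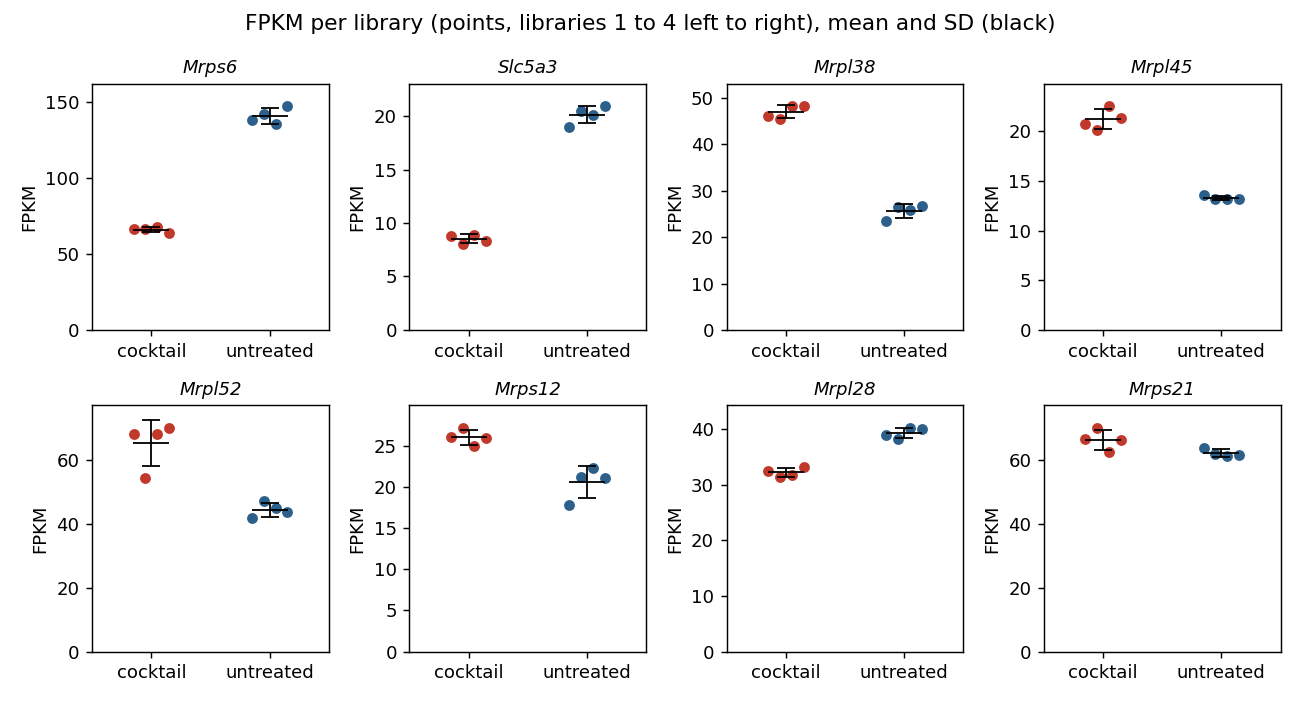
FPKM (y axis, from 0) of 7 mitochondrial ribosomal protein genes and Slc5a3 in each cocktail library (left) and untreated library (right), with the mean and SD of 4 libraries in black. In Mrps6, Slc5a3 and Mrpl28 all cocktail points lie below the untreated points, in Mrpl38, Mrpl45, Mrpl52 and Mrps12 all lie above, and in Mrps21 the groups overlap.

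The other rises were smaller and lay in both subunits. In the small subunit, Mrps12, the homologue of bacterial S12 at the decoding centre, measured 26.0, 27.2, 24.9 and 25.9 FPKM in cocktail libraries, against 17.8, 21.2, 22.3 and 21.0 FPKM in untreated libraries. All cocktail values were above all untreated values, with a log2 difference of 0.33 (SE 0.058, limma adjusted p = 3.34e-04). Mrps35, a mitochondria-specific small-subunit protein, averaged 17.4 ± 0.758 FPKM in cocktail and 14.3 ± 0.852 FPKM in untreated cells (SD, n = 4 each), a log2 difference of 0.27 with groups that did not overlap (limma adjusted p = 2.32e-04). In the large subunit, Mrpl54, a mitochondria-specific protein, averaged 35.2 ± 1.93 FPKM in cocktail and 28.8 ± 2.76 FPKM in untreated cells (SD, n = 4 each), a log2 difference of 0.28, also without overlap (limma adjusted p = 0.00151).

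Mrpl21, the homologue of bacterial L21, averaged 10.8 ± 1.04 FPKM in cocktail and 9.02 ± 0.640 FPKM in untreated cells (SD, n = 4 each) with a log2 difference of 0.24 (limma adjusted p = 0.00734), and its groups overlapped. Without cocktail libraries 3 and 4 its adjusted p was 0.0816. Mrpl14, the homologue of bacterial L14 at the subunit interface, averaged 9.69 ± 0.317 FPKM in cocktail and 8.20 ± 1.25 FPKM in untreated cells (SD, n = 4 each), a log2 difference of 0.23 with overlapping groups (limma adjusted p = 0.0267). Its adjusted p was 0.0509, 0.0616, 0.0566 and 0.0589 without cocktail library 1, cocktail library 2, untreated library 1 and untreated library 3 in turn. Mrpl14 also shares 106 exon bases with Tmem63b on the other strand, and the use of strand in counting is not stated.

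Mrps18a, Mrps18b and Mrps18c are related to bacterial S18. Mrps18b, in the small subunit, averaged 10.8 ± 0.416 FPKM in cocktail and 8.80 ± 0.807 FPKM in untreated cells (SD, n = 4 each), a log2 difference of 0.27 (limma adjusted p = 0.00126). Mrps18a, in the large subunit, averaged 31.2 ± 1.36 FPKM in cocktail and 26.6 ± 1.84 FPKM in untreated cells (SD, n = 4 each), a log2 difference of 0.23 (limma adjusted p = 0.00127). Both were without overlap between groups. Mrps18c, the small-subunit paralogue, was at 26.9 to 30.4 FPKM in cocktail and 22.7 to 29.8 FPKM in untreated libraries, and its log2 difference of 0.13 did not pass (limma adjusted p = 0.121, and 0.0215 without untreated library 4). Mrps18b overlaps 638 exon bases of the antisense gene Gm16279.

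The remaining rises had log2 differences of 0.09 to 0.22. Mrpl12, the homologue of the bacterial L7/L12 stalk protein, averaged 29.5 ± 1.31 FPKM in cocktail and 25.1 ± 1.09 FPKM in untreated cells (SD, n = 4 each) and had the largest of these (limma adjusted p = 3.96e-04). Mrps21, the second most abundant member, was at 66.6, 70.0, 62.5 and 66.2 FPKM in cocktail libraries, against 63.8, 62.0, 61.3 and 61.6 FPKM in untreated libraries. Its lowest cocktail value lay within the untreated range, and the log2 difference was 0.09 (limma adjusted p = 0.0329). That call was lost without cocktail library 1, 2 or 4 or untreated library 2, 3 or 4 in turn, at adjusted p of 0.0545 to 0.0936. The other genes in this range were Mrpl35, Mrps7, Mrps34, Mrpl18, Mrps10, Mrpl55, Mrps16, Mrps5, Mrpl22 and Mrpl37. Among them Mrpl37 was no longer called without cocktail library 1 (adjusted p = 0.0609) and Mrpl55 without untreated library 4 (adjusted p = 0.0513). Mrpl22 was not called without cocktail library 3 or 4 or any of the 4 untreated libraries in turn (0.0536 to 0.122), and Mrps16 without cocktail library 2 or 4 or untreated library 1, 2 or 3 (0.0804 to 0.135).

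Besides Mrps6, the falls were of log2 differences of at most 0.28. Mrpl28, the homologue of bacterial L28, measured 32.5, 31.5, 31.8 and 33.2 FPKM in cocktail libraries, against 39.0, 38.3, 40.3 and 40.0 FPKM in untreated libraries. The groups did not overlap, and the log2 difference was -0.28 (SE 0.029, limma adjusted p = 3.85e-06). Its upstream neighbour Tmem8, on the same strand and 246 bases away, fell to 2.21 ± 0.228 FPKM in cocktail cells, against 8.01 ± 0.378 FPKM in untreated cells (SD, n = 4 each, log2 difference -1.49, limma adjusted p = 4.81e-10). Mrpl57 and Mrpl40 are mitochondria-specific large-subunit proteins. Mrpl57 averaged 4.24 ± 0.0696 FPKM in cocktail and 5.27 ± 0.385 FPKM in untreated cells (log2 difference -0.26, limma adjusted p = 6.95e-04), and Mrpl40 averaged 13.4 ± 0.290 FPKM in cocktail and 16.1 ± 1.03 FPKM in untreated cells (log2 difference -0.25, limma adjusted p = 2.84e-04). Mrpl33, the homologue of bacterial L33, averaged 46.4 ± 2.94 FPKM in cocktail and 53.5 ± 2.04 FPKM in untreated cells (log2 difference -0.20, limma adjusted p = 0.00162). None of these 3 overlapped between groups.

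The other 5 falls were not called after median-ratio rescaling. Mrps24, the homologue of bacterial S3, was at 11.7 to 13.7 FPKM in cocktail and 13.3 to 16.5 FPKM in untreated libraries, with a log2 difference of -0.19 (limma adjusted p = 0.0258) that was not called without cocktail library 3 or 4 or untreated library 1 or 2 (0.0610 to 0.0809). It shares 226 exon bases on the same strand with Urgcp. The mitochondria-specific Mrpl42 measured 30.1 and 31.2 FPKM in cocktail libraries 1 and 2 and 35.1 and 36.2 FPKM in cocktail libraries 3 and 4, against 38.3, 37.5, 36.1 and 38.5 FPKM in untreated libraries. The fall of Mrpl42 thus lay mostly in cocktail libraries 1 and 2: the log2 difference was -0.18 with all libraries (limma adjusted p = 0.0111), and without those libraries the adjusted p was 0.111. Mrps22, another mitochondria-specific protein, split in the same way, at 11.99 and 12.13 FPKM in cocktail libraries 1 and 2, 13.3 and 13.6 FPKM in cocktail libraries 3 and 4, and 13.7 to 15.2 FPKM in untreated libraries (log2 difference -0.16, limma adjusted p = 0.0116, and 0.149 without cocktail libraries 1 and 2).

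Mrps11, the homologue of bacterial S11, had a log2 difference of -0.13 (limma adjusted p = 0.0294) that was not called without cocktail library 1 or untreated library 1 or 3 (0.0846 to 0.0905). Mrpl24, the homologue of bacterial L24, had the smallest called difference, -0.08 (limma adjusted p = 0.0348), and was not called without cocktail library 1, 3 or 4 or untreated library 1, 2 or 3 (0.0534 to 0.0990).

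The 45 genes that were not called had log2 differences of -0.11 to 0.14. Their 95% intervals reached from -0.28 (Mrpl47) to 0.30 (Mrpl1). Standard errors over the 77 genes were 0.029 to 0.106 with a median of 0.048. Mrpl13, the homologue of bacterial L13 and the fifth most abundant member, was at 43.6 ± 2.20 FPKM in cocktail and 45.2 ± 1.85 FPKM in untreated cells (SD, n = 4 each, log2 difference -0.05, 95% interval -0.14 to 0.04, limma adjusted p = 0.275). Mrps30, in the large subunit despite its name, was at 14.7 ± 0.290 FPKM in cocktail and 13.9 ± 0.840 FPKM in untreated cells (log2 difference 0.08, limma adjusted p = 0.0976, and 0.0142 without untreated library 2). Mrps36, the dehydrogenase component, was at 18.6 ± 1.43 FPKM in cocktail and 20.2 ± 0.692 FPKM in untreated cells (log2 difference -0.11, limma adjusted p = 0.0597). Without cocktail library 3 the fall of Mrps36 was called (adjusted p = 0.00290), as it was, narrowly, without untreated library 2 (0.0490). In all, 15 of the 45 genes were called in at least one of the 8 analyses that left out a library.

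Neither subunit, nor the bacterial or mitochondria-specific proteins, made up the changed genes alone. In the large subunit 13 of 50 genes were higher and 6 lower (38% called), with a median log2 difference of 0.06. In the small subunit 9 of 26 were higher and 4 lower (50% called), with a median of 0.03. Over all tested genes 26.6% were higher, 41.1% lower and 67.7% called. Of the 46 proteins classed as counterparts of a bacterial protein 13 were higher and 6 lower (41.3% called). Of the 30 classed as mitochondria-specific 9 were higher, Mrps18a and Mrps18b among them, and 4 lower (43.3% called). The difference between these classes was not tested.

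Summed over all 77 genes on the scale of library totals, the levels of the 2 groups overlapped. Without Mrps6 they did not, and without Mrpl38, Mrpl45 and Mrpl52 as well they overlapped again. The sum was 1540, 1568, 1580 and 1601 FPKM in cocktail libraries, against 1565, 1574, 1539 and 1581 FPKM in untreated libraries. These ranges overlap, with means of 1572 ± 25.4 FPKM in cocktail and 1565 ± 18.2 FPKM in untreated cells (SD, n = 4 each). Without Mrps6 the sum was 1506 ± 26.5 FPKM in cocktail and 1424 ± 13.8 FPKM in untreated cells, 5.76% higher in cocktail cells and without overlap. With Mrpl38, Mrpl45 and Mrpl52 also left out, the other 73 genes summed to 1373 ± 25.1 FPKM in cocktail and 1341 ± 14.0 FPKM in untreated cells, 2.38% higher with overlapping ranges. The large-subunit sum was 1014 ± 21.95 FPKM in cocktail and 957 ± 10.7 FPKM in untreated cells, 6.04% higher in cocktail cells. Without Mrpl38, Mrpl45 and Mrpl52 the other 47 large-subunit genes summed to 881 ± 18.7 FPKM in cocktail and 873 ± 10.7 FPKM in untreated cells, 0.874% higher with overlapping ranges. The small-subunit sum was 539 ± 7.23 FPKM in cocktail and 588 ± 10.6 FPKM in untreated cells, and once Mrps6 was left out it was 473 ± 8.03 FPKM in cocktail and 447 ± 5.72 FPKM in untreated cells. The sums are on the scale of library totals, and their overlap is a statement about that scale only. Median-ratio rescaling divides each library by a factor, 0.974 to 0.985 in cocktail and 1.022 to 1.024 in untreated libraries. Such rescaling raises cocktail sums relative to untreated sums, and rescaled sums are not given here. An unchanged total can thus not be read from the overlap.

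**Figure D3:**
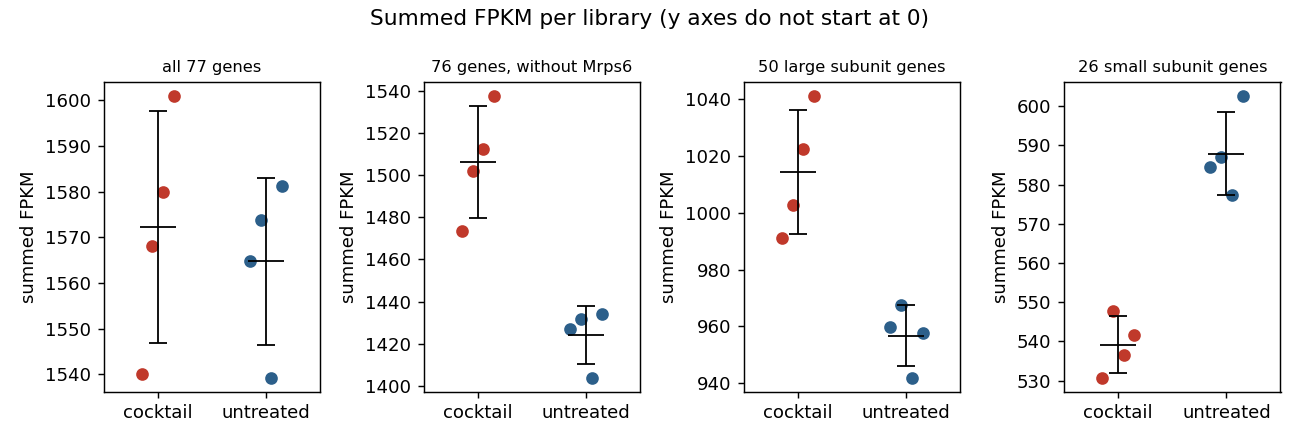
Summed FPKM per library (y axes, not starting at 0) for all 77 genes, for the 76 without Mrps6, and for the genes of each subunit, with cocktail libraries on the left and untreated libraries on the right and the mean and SD of 4 libraries in black. On this scale of library totals the sums overlap for all 77 genes (1572 and 1565 FPKM) and are apart in the other panels.

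For the cytosolic ribosome, of 81 tested cytosolic ribosomal protein genes 79 were higher and 1 lower in cocktail cells, with a median log2 difference of 0.41. The summed level of all 84 such genes, tested or not, was 20564 ± 546 FPKM in cocktail and 15572 ± 177 FPKM in untreated cells (SD, n = 4 each), 32.1% higher. Of 77 tested nuclear genes for respiratory chain and ATP synthase subunits, whose partners are made by the mitoribosome, 18 were higher and 10 lower, with a median of 0.03. After median-ratio rescaling these counts were 80 and 0 of the cytosolic ribosomal protein genes and 36 and 3 of the respiratory genes. In the main test the share called was 98.8% of the cytosolic ribosomal protein genes, 36.4% of the respiratory genes and 67.7% of all tested genes. No test of the difference between the gene sets was made.

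**Figure D4:**
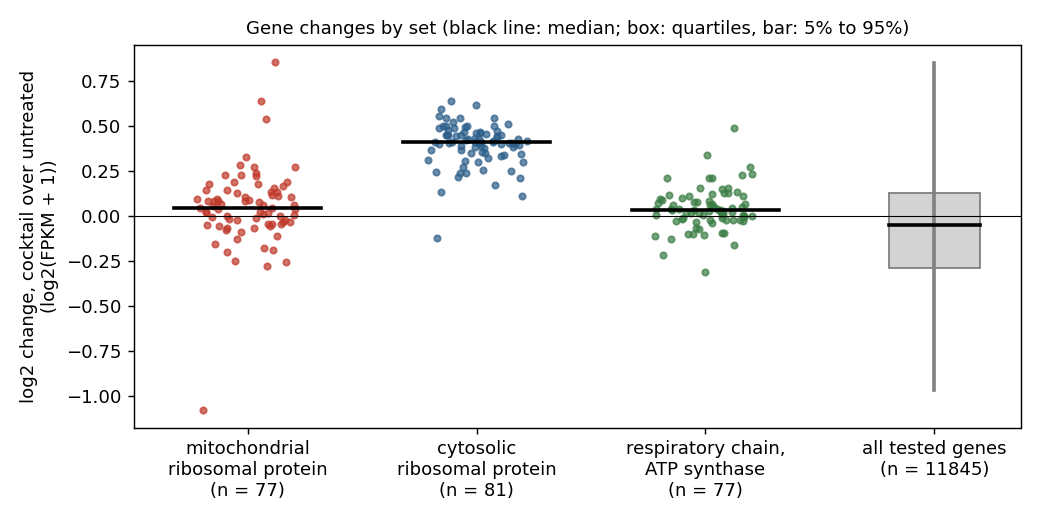
Log2 difference, cocktail over untreated on the log2(FPKM + 1) scale (y axis), of each mitochondrial ribosomal protein gene, cytosolic ribosomal protein gene and respiratory chain or ATP synthase gene (points) with the median of each set (black line), beside the quartiles and the 5% to 95% range of all 11845 tested genes. The medians are 0.05, 0.41 and 0.03, and -0.05 for all tested genes.

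Of 68 tested other nuclear genes of mitochondrial translation 11 were higher and 10 lower (30.9% called), with a median log2 difference of -0.01, and after median-ratio rescaling 20 were higher and 6 lower. By list, 33.3% of mitoribosome proteins with other symbols, 33.3% of translation factors, 36% of assembly and modification genes and 35.3% of synthetases were called. The share over all tested genes was 67.7%. Of 6 mitoribosome proteins that carry other symbols, 2 were higher and none lower, and after rescaling 4 and none. Chchd1, a small-subunit protein, averaged 32.3 ± 2.23 FPKM in cocktail and 26.8 ± 1.70 FPKM in untreated cells (SD, n = 4 each, log2 difference 0.26, limma adjusted p = 9.20e-04). Gadd45gip1, a large-subunit protein, averaged 11.8 ± 0.468 FPKM in cocktail and 9.92 ± 0.865 FPKM in untreated cells (log2 difference 0.23, limma adjusted p = 0.00284).

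Of 12 translation factors 3 were higher and 1 lower, and after rescaling 4 and 1. Tufm, the elongation factor that brings aminoacyl-tRNA to the ribosome, averaged 40.0 ± 0.489 FPKM in cocktail and 33.9 ± 1.63 FPKM in untreated cells (SD, n = 4 each, log2 difference 0.23, limma adjusted p = 7.61e-05). Oxa1l, which inserts the nascent proteins into the inner membrane, averaged 27.2 ± 0.959 FPKM in cocktail and 23.4 ± 1.58 FPKM in untreated cells (log2 difference 0.21, limma adjusted p = 0.00152). Tsfm, the exchange factor of Tufm, had a log2 difference of 0.20 (limma adjusted p = 0.0406), which was not called without cocktail library 1, 2 or 4 or untreated library 1, 2 or 3 (0.0662 to 0.114). The elongation factor Guf1 was lower, at 4.46 ± 0.321 FPKM in cocktail and 5.23 ± 0.139 FPKM in untreated cells (log2 difference -0.19, limma adjusted p = 0.00500, and 0.0729 without cocktail libraries 1 and 2).

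Of 25 assembly factors and ribosomal RNA modifying enzymes 3 were higher and 6 lower, and after median-ratio rescaling 4 were higher and 2 lower. Tfb1m, which dimethylates the small ribosomal RNA, averaged 6.66 ± 0.577 FPKM in cocktail and 4.75 ± 0.572 FPKM in untreated cells (SD, n = 4 each, log2 difference 0.42, limma adjusted p = 3.36e-04). Ddx28, a helicase of large-subunit assembly, was also higher (log2 difference 0.29, limma adjusted p = 0.00107). Mrm1, a methyltransferase of the large ribosomal RNA, fell to 1.5 ± 0.136 FPKM in cocktail cells, against 2.61 ± 0.221 FPKM in untreated cells (log2 difference -0.53, limma adjusted p = 1.11e-05). Mettl15, a methyltransferase of the small ribosomal RNA, had a log2 difference of -0.28 (limma adjusted p = 0.0464), not called without cocktail library 1, 2 or 4 or untreated library 1, 3 or 4 (0.0635 to 0.139).

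Of 17 mitochondrial aminoacyl-tRNA synthetases 3 were higher and 3 lower, and after rescaling 7 and 3. Sars2, for serine, averaged 4.58 ± 0.276 FPKM in cocktail and 3.16 ± 0.278 FPKM in untreated cells (SD, n = 4 each, log2 difference 0.42, limma adjusted p = 4.41e-05). Aars2, for alanine, was higher by a log2 difference of 0.26 (limma adjusted p = 4.46e-04). Nars2, for asparagine, was lower by a log2 difference of -0.21 (limma adjusted p = 0.0118). None of 8 genes for transcription and upkeep of mitochondrial DNA was called in either direction, and 1 was called higher after rescaling.

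Of 9 tested regulators of nuclear genes for mitochondrial proteins 4 were higher and none lower, and after rescaling 6 and none. The share called in the main test was 44.4%, against 67.7% of all tested genes. Myc, a transcription factor of growth and ribosome production, measured 10.6, 9.62, 10.7 and 10.5 FPKM in cocktail libraries, against 5.11, 6.10, 4.77 and 4.99 FPKM in untreated libraries, without overlap (log2 difference 0.87, limma adjusted p = 1.51e-07). Pprc1 and Ppargc1a, coactivators of the PGC-1 family, averaged 5.13 ± 0.276 and 5.81 ± 0.130 FPKM in cocktail cells, against 3.89 ± 0.287 and 4.77 ± 0.210 FPKM in untreated cells (SD, n = 4 each, log2 differences 0.33 and 0.24, limma adjusted p = 1.98e-04 and 3.47e-04). Yy1 averaged 30.6 ± 0.640 FPKM in cocktail and 27.6 ± 0.620 FPKM in untreated cells (log2 difference 0.14, limma adjusted p = 0.00104). Nrf1 was at 2.26 ± 0.106 FPKM in cocktail and 2.51 ± 0.214 FPKM in untreated cells (log2 difference -0.10, limma adjusted p = 0.129), and Gabpa at 17.8 ± 0.847 FPKM in cocktail and 18.1 ± 0.582 FPKM in untreated cells (log2 difference -0.03, limma adjusted p = 0.528).

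Promoter windows were found for 68 of the 77 genes, 74 windows in all. They were set beside the 21032 windows of all genes in the table (17267 genes with a window), which include genes that did not pass the filter. All 77 members passed it, and a comparison with expressed genes alone was not made. The 10-base NRF1 motif was in 17.6% of the member windows and in 6.44% of the windows of all genes. The ETS motif was in 33.8% and 11.6%, the YY1 motif in 17.6% and 6.21%, and the GC box in 52.7% and 46.5%. At least 1 of the 4 was in 81.1% and 55.0%. Of the 13 genes with an NRF1 motif 4 were higher and 1 lower, with a median log2 difference of 0.08, and of the 55 without it 14 were higher and 9 lower, with a median of 0.02. Of the 25 genes with an ETS motif 9 were higher and 3 lower, with a median of 0.08, and of the 43 without it 9 were higher and 7 lower, with a median of 0.04. For the YY1 motif the counts were 6 higher and 3 lower of 13 genes with it (median 0.08) and 12 higher and 7 lower of 55 without it (median 0.04). For the GC box the medians lay the other way round, 0.02 in the 34 genes with it (9 higher and 7 lower) and 0.06 in the 34 without it (9 higher and 3 lower). Among all tested genes 26.6% were higher and 41.1% lower. The motif counts are descriptions of letters in a window, and no difference between them was tested.

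The 77 genes lie on 17 chromosomes, with 10 on chromosome 11, and 25 of them start within 500 bases of a gene on the opposite strand. In 24 such pairs both genes were tested, and 62.5% of the partners were called, near the 67.7% of all tested genes. Both were called in the same direction in 5 pairs, in none in opposite directions, the partner but not the ribosomal protein gene in 10, the ribosomal protein gene but not the partner in 5, and neither in 4, where Mrpl46 and Mrps11 form 1 pair with Mrps11 counted as the partner. After median-ratio rescaling 8 pairs were called in the same direction and 1 in opposite directions, Mrpl10 being higher and Lrrc46 lower. The 5 pairs called together in the main test were Mrps12 with Sars2, Mrps34 with Eme2, Mrpl37 with Cyb5rl, Mrpl40 with Hira and Mrpl57 with Ska3. Mrps34 (limma adjusted p = 0.00749) had overlapping groups and was not called without cocktail libraries 1 and 2 (0.0844). It shares 763 exon bases with Nme3 on the same strand and 1309 with Mapk8ip3 on the other. Hira (limma adjusted p = 0.00934) was not called after median-ratio rescaling (0.129) or without cocktail libraries 3 and 4 (0.0635). Cyb5rl (limma adjusted p = 0.0229) was not called without cocktail library 2 (0.0694), cocktail library 3 (0.0535), untreated library 4 (0.0561) or cocktail libraries 1 and 2 together (0.149). Sars2 is the serine synthetase described above, so that 2 genes of mitochondrial translation that start 172 bases apart were both higher. Ska3, which encodes a spindle and kinetochore protein, measured 1.09, 1.48, 1.58 and 0.851 FPKM in cocktail libraries, against 3.45, 3.12, 4.17 and 3.69 FPKM in untreated libraries (log2 difference -1.04, limma adjusted p = 2.92e-06). Ska3 would not have passed the filter without untreated libraries, the group where it was high, which limits what its call can show. Its partner Mrpl57, which starts 49 bases away, had a log2 difference of -0.26.

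In 10 pairs the partner was called and the ribosomal protein gene was not. Ncapd2, a condensin subunit that starts 100 bases from Mrpl51, fell to 11.4 ± 0.287 FPKM in cocktail cells, against 19.4 ± 1.15 FPKM in untreated cells (SD, n = 4 each, log2 difference -0.71, limma adjusted p = 2.79e-08). Mrpl51 was at 31.5 ± 1.12 FPKM in cocktail and 31.3 ± 0.556 FPKM in untreated cells (log2 difference 0.01, 95% interval -0.06 to 0.08). Eme1, an endonuclease subunit paired with Mrpl27, had a log2 difference of -0.75 (limma adjusted p = 5.32e-06), and that of Mrpl27 was 0.06 (95% interval -0.07 to 0.18). Eme1 was a low gene, at 0.787 ± 0.133 FPKM in cocktail and 2.01 ± 0.311 FPKM in untreated cells, on 30 to 118 fragments a library. It passed the filter only through untreated libraries, the group where it was high, which limits what its call can show. Fau, which encodes a fusion protein containing a cytosolic ribosomal protein and is paired with Mrpl49, rose to 126 ± 3.38 FPKM in cocktail cells, against 101 ± 2.88 FPKM in untreated cells (log2 difference 0.32, limma adjusted p = 1.50e-06), while Mrpl49 had a log2 difference of -0.06 (95% interval -0.18 to 0.06).

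**Figure D5:**
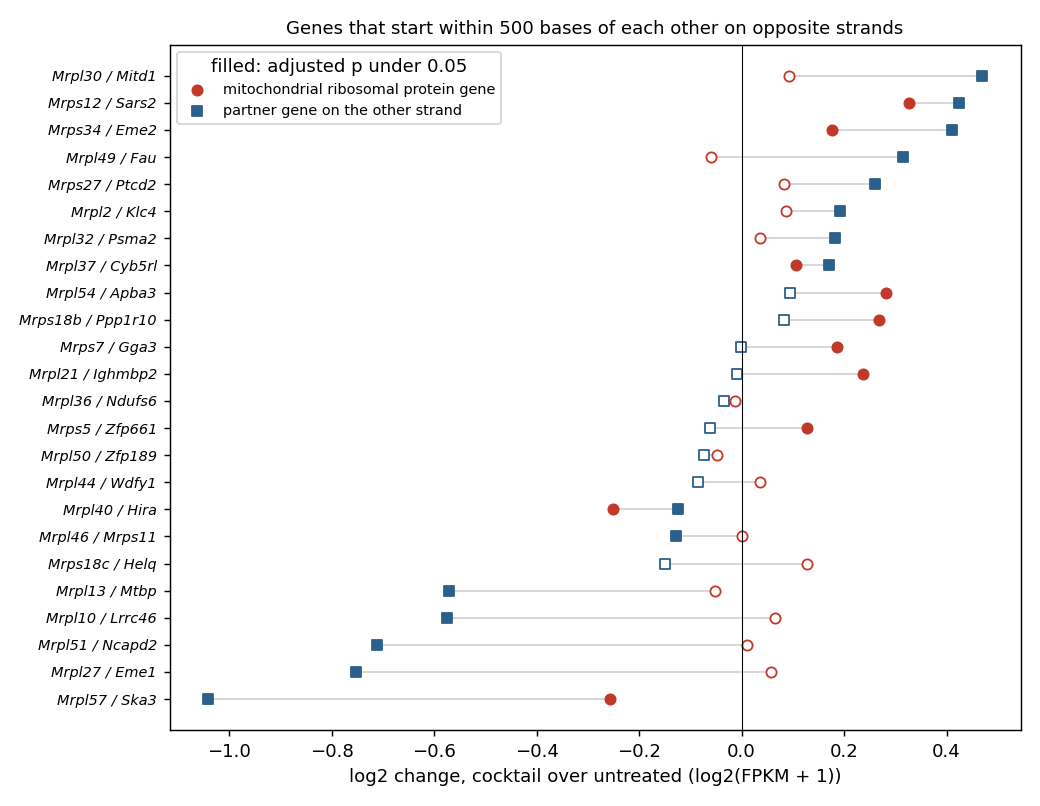
Log2 difference, cocktail over untreated on the log2(FPKM + 1) scale (x axis), of the ribosomal protein gene (circle) and its partner on the other strand (square) in 24 pairs with starts within 500 bases; filled symbols have an adjusted p under 0.05. Partners range from -1.04 (Ska3) to 0.47 (Mitd1), and the ribosomal protein genes from -0.26 (Mrpl57) to 0.33 (Mrps12).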

How the data were processed

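The authors deposited FPKM values for 21878 genes in 8 libraries made with a stranded mRNA kit, per the labels' protocols. DESeq and the build mm10 are named in the submitters' processing notes. Which aligner and counter were used, and whether counting used strand, is not given in the sources used here. The libraries were grouped by title, since the treatment label of 3 cocktail libraries spells C1q with other digits.

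Within a gene the deposited FPKM stood in whole-number ratios (relative tolerance 1e-11), so whole fragments could be recovered for each of the 16557 genes that had a value in 2 or more libraries, 99.9% of each total. A further 701 genes were above 0 in 1 library and 4620 at 0 in all. A count of 0 allows 3 fragments, 0.145 to 0.156 FPKM for a gene of 1 kb. FPKM rests on the authors' gene lengths, 412 to 7204 bases among the 77 genes. Chi-squares between libraries left out genes under 20 fragments in a pair.

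The main test was limma 3.58.1 (R 4.3.3) with a variance trend on log2(FPKM + 1), two-sided, over the 11845 genes that reached 1 FPKM in 4 or more of 8 libraries, with Benjamini-Hochberg adjustment over all of them, and an adjusted p under 0.05 was called. Fold changes on this scale understate the change of low genes. The fit was tested on simulated data. Alternatives were a pseudocount of 0.1, no filter, median-ratio rescaling, no variance trend, a robust fit, voom on recovered fragments, a replicate block, each library left out, and cocktail libraries 1 and 2, or 3 and 4, left out. Positions and exon overlaps came from GENCODE M21, and promoter windows from RefSeq, both on GRCm38. Exon overlaps were sought only with protein-coding, antisense, lincRNA and processed-transcript genes.

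The members and gene lists were chosen with earlier results of these data known. Named genes were the 10 largest called rises and falls, the 5 highest levels, the S18 paralogues, Mrps30, Mrps36, up to 4 called genes of each companion list by size, and 5 regulators. Other genes, among them all neighbours, partners and the remaining members, were named after their values were seen. A companion gene that this rule names is not reported here. Proteins were not used here.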

Additional observations from a re-analysis of the deposited data

Results flagged for a closer look

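In 12 of 198 groups of 4 libraries (99 genes, the 77 ribosomal protein genes and 22 companions and neighbours), 1 library lay far from the other 3 relative to the range of the group. Chance gives about 1 in 20, or 9.9 of 198.

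Among cocktail libraries, library 2 was low for Mrpl52 at 54.5 FPKM, next to 68.1 FPKM for the nearest. Library 2 was high for Mrpl17 at 6.80 FPKM (nearest 5.92) and for Tufm at 40.7 FPKM (nearest 39.8). Library 3 was low for Mrpl34 at 23.5 FPKM (nearest 27.7) and for Mrpl55 at 13.6 FPKM (nearest 15.6), and library 4 for Mrpl27 at 8.58 FPKM (nearest 9.45).

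Among untreated libraries, library 4 was low for Mrpl50 at 13.9 FPKM (nearest 14.6), for Mrps33 at 17.9 FPKM (nearest 19.5) and for Mrpl39 at 13.1 FPKM (nearest 14.5). Library 3 was low for Mrpl33 at 50.4 FPKM (nearest 54.2), library 1 was low for Mrpl22 at 9.91 FPKM (nearest 10.5), and library 1 was high for Mrpl45 at 13.5 FPKM (nearest 13.2). The calls of Mrpl55 and Mrpl22 depended on single libraries, as given with their values, and Mrpl17, not called with all libraries (limma adjusted p = 0.0739), was called without untreated library 1 (0.0404).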

How the results depend on the processing

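Under median-ratio rescaling the 77 genes had 34 higher and 5 lower, in place of 22 and 10, and the other mitochondrial translation genes 20 higher and 6 lower, in place of 11 and 10. Rescaling lifts the cocktail libraries relative to the untreated ones, so higher calls are gained and lower calls lost. Under the other settings the 77 genes had 22 and 10 (pseudocount 0.1), 19 and 9 (no filter), 20 and 10 (no variance trend), 22 and 10 (robust fit) and 19 and 8 (voom). Leaving out each library in turn gave 19 to 23 higher and 8 to 11 lower among the 77 genes. No gene among the 77 changed direction while called. Over the 32 called genes and 17 alternatives, 472 of 544 values kept the call and direction and 72 lost the call; over the 45 others, 725 of 765 stayed uncalled and 40 became called.

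Whether the replicate numbers pair the libraries is not stated, and weak correlations cannot exclude it. Deviations of same-numbered libraries correlated at -0.04, 0.08, 0.09 and -0.01, and the highest value between differently numbered libraries was 0.05. Not every library correlated best with its own number. With the replicate block, 22 of the 77 genes were higher and 9 lower, and among these 77 genes the call of Mrpl24 was lost (adjusted p = 0.0522).

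Limits are the 4 libraries a group, whose independence is not stated, scaling by library totals, and shared exons in 30 of the 77 genes, 23 of them with a coding gene, for which the authors' assignment of fragments is not given in the sources used here. Counts of 155 to 2368 fragments a library limit what can be detected in the low genes. The sums that leave out Mrps6, Mrpl38, Mrpl45 or Mrpl52 were chosen after the data were seen.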
